A study of Mus musculus with 9 samples.

Results

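Msln, Upk3b, Upk1b, Wt1 and Lrrn4 are markers of mesothelium, the cell layer that covers visceral fat. They were chosen by name, as the probe sets whose only gene symbol in the probe annotation was that of the gene, with the brightest such probe set taken for each gene. All 5 genes were measured, by 1 probe set each, among 14860 genes with such a probe set. Gene expression was profiled in perigonadal white adipose tissue, a visceral fat depot, of mice aged 4 months. The 9 untreated samples, 1 array each, comprised 3 of each genotype: wild type (wt), homozygous G609G/G609G and homozygous LCS/LCS. Lmna encodes lamins A and C of the nuclear envelope; its G609G allele is known to produce progerin, a truncated lamin A, and its LCS allele to produce lamin C without lamin A. The labels do not spell out LCS and state neither sex nor strain. The comparison asks how mesothelial transcripts of the fat pad differ between these genotypes.

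The mesothelium is a sheet of flat, epithelium-like cells of mesodermal origin that lines the body cavities and the organs in them, including the surface of visceral fat pads, but is absent from subcutaneous fat. Its cells are held together by junctions, secrete lubricants and proteoglycans, and combine epithelial keratins with features of mesenchyme. Msln encodes mesothelin, a surface protein anchored by a lipid that binds the mucin Muc16. Upk3b and Upk1b encode uroplakins, membrane proteins first known from the urinary bladder lining, Upk1b being a tetraspanin. Lrrn4 encodes a membrane protein with leucine-rich repeats. Wt1 encodes a zinc finger transcription factor that marks mesothelium, and in mice it is also expressed by progenitor cells of visceral fat and by Sertoli cells of the testis.

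The promoters of Upk3b and Lrrn4 are shown because both genes were called in both comparisons with wt. The RefSeq promoter table of build GRCm38.p6 held these 2 of the 5 genes. Each window runs 5′ to 3′ on the strand of the gene, from 250 bases before the start site to 50 after it, 300 bases in all. Upk3b lies on the plus strand at chr5:136038246-136038545 and Lrrn4 on the minus strand at chr2:132880813-132881112. Capitals mark the letters GGAATG, known for TEAD factors, or CATTCC, their reverse complement.
Upk3b: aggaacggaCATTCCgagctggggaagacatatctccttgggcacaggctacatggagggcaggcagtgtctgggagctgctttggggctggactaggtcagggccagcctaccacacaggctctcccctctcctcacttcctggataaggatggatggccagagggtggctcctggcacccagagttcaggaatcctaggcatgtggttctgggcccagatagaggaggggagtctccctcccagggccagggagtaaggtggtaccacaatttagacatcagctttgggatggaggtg
Lrrn4: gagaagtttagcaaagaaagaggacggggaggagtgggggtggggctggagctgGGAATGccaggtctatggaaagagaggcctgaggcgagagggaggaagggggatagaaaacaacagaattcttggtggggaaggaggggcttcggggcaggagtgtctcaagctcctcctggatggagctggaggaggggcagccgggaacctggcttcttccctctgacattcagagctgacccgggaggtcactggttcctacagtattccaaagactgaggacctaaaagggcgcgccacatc
The match lay at bases 10 to 15 of the Upk3b window and at bases 55 to 60 of the Lrrn4 window. On either strand, 14.7% of 32851 promoters of the same length held it. GCGTGGG and GTGGGAG, letters known for WT1 and related zinc fingers, were in neither window and were held by 5.04% and 9.73% of all promoters. TATAAA was in neither and was held by 13.6%. None of these motifs overlapped in the 2 windows.

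Values are deposited log2 signals per probe set, group values are means ± SD over n = 3 arrays, and changes carry the standard error (SE) of limma's moderated test. P-values are two-sided, adjusted by Benjamini-Hochberg over all 23332 probe sets, and called at 0.05 or less. The study design speaks of biological replicates without saying that each array was 1 animal, so the p-values cover the spread between arrays, some of which can be technical. Precision is limited by having 3 arrays per genotype. The array medians were 6.36 to 6.45 in wt, 5.94 to 6.01 in G609G/G609G and 6.31 to 6.37 in LCS/LCS. The median change over all genes in G609G/G609G against wt was -0.28 as deposited. It was 0.02 with quantile normalization and 0.14 with median centring, and each direction below was checked on these 3 scalings. Skeletal muscle markers summed to a linear signal of 863 to 954 in wt, 37029 to 38378 in G609G/G609G and 2074 to 2120 in LCS/LCS. Lmna itself was at 7.60 ± 0.04 (wt), 7.13 ± 0.12 (G609G/G609G) and 7.57 ± 0.08 (LCS/LCS). Its G609G/G609G change was called as deposited (-0.47), but not with quantile normalization (0.06) or median centring (-0.05), and this gene-level value cannot tell the alleles' transcripts apart.

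Upk3b, a uroplakin, measured 10.03, 10.06 and 10.10 in wt, 9.28, 9.33 and 9.46 in G609G/G609G and 10.66, 10.61 and 10.63 in LCS/LCS. Every G609G/G609G array lay below every wt array, and every LCS/LCS array above. As deposited, 56.4% of genes had such a gap below wt in G609G/G609G, and 25.6% one above wt in LCS/LCS.

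Msln, which encodes mesothelin, measured 7.38, 7.24 and 7.49 in wt, 6.32, 6.39 and 6.64 in G609G/G609G and 8.23, 8.19 and 8.30 in LCS/LCS. The 3 genotypes did not overlap. Upk1b measured 9.03, 9.15 and 9.20 in wt, 7.57, 7.35 and 7.53 in G609G/G609G and 9.55, 9.49 and 9.56 in LCS/LCS. Its G609G/G609G arrays stood far below the others, while its LCS/LCS arrays were only a little above those of wt.

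Lrrn4 measured 8.91, 8.94 and 8.95 in wt, 8.19, 8.22 and 8.40 in G609G/G609G and 9.37, 9.31 and 9.39 in LCS/LCS. Its order of genotypes was that of Upk3b, Msln and Upk1b, again without overlap. Wt1 measured 8.04, 7.97 and 8.04 in wt, 7.80, 7.73 and 7.96 in G609G/G609G and 8.06, 7.98 and 7.98 in LCS/LCS. Its wt and LCS/LCS arrays overlapped, and the highest G609G/G609G array was only just below the lowest wt array. In bulk tissue, fewer cells of a type and less RNA per cell cannot be told apart.

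**Figure D1:**
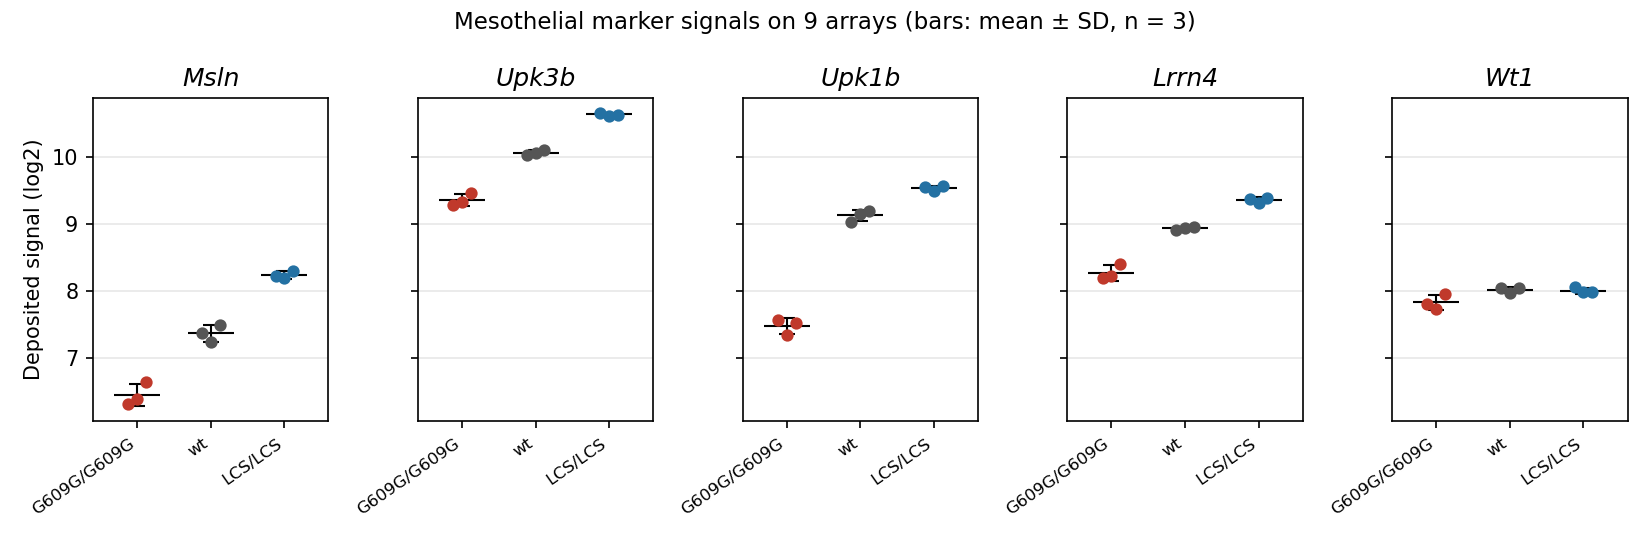
Deposited log2 signal (vertical axis) of each marker on each of the 9 arrays, by genotype, with points for arrays and bars for the mean ± SD of 3 arrays. For Msln, Upk3b, Upk1b and Lrrn4 the genotypes are ordered G609G/G609G, wt, LCS/LCS without overlap, while Wt1 lies between 7.73 and 8.06 on all 9 arrays.

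In G609G/G609G fat, 4 of the 5 mesothelial markers fell against wt, and Wt1 did not pass the test. Upk1b fell most, from 9.13 ± 0.09 to 7.48 ± 0.12, a 3.12-fold difference (change -1.64, SE 0.07, limma adjusted p = 7.28e-07). Msln went from 7.37 ± 0.13 to 6.45 ± 0.17, a 1.89-fold difference (change -0.92, SE 0.10, adjusted p = 8.35e-05). Upk3b went from 10.06 ± 0.04 to 9.36 ± 0.09 (change -0.71, SE 0.06, adjusted p = 2.1e-05) and Lrrn4 from 8.93 ± 0.02 to 8.27 ± 0.11 (change -0.66, SE 0.07, adjusted p = 5.32e-05). In this comparison 52.7% of all probe sets were called, 43.3% lower and 9.41% higher, so the share called lower was large over the whole array.

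The 4 falls kept their direction and their call on the other scalings, but were smaller. Upk1b was at -1.16 after quantile normalization and -1.22 after median centring, Msln at -0.42 and -0.50, Upk3b at -0.33 and -0.28, and Lrrn4 at -0.22 and -0.24. Falls that were called on all 3 scalings made up 25.5% of all genes, against 4 of the 5 markers. Wt1 had no settled direction. Its change was -0.19 as deposited (SE 0.07, limma adjusted p = 0.0502, 95% interval -0.35 to -0.03), 0.32 after quantile normalization (adjusted p = 0.0009) and 0.24 after median centring (adjusted p = 0.00713). On those scalings 24.8% and 41.4% of probe sets were called higher.

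In LCS/LCS fat the same 4 markers rose against wt and Wt1 did not pass the test. Msln rose most, to 8.24 ± 0.06, a 1.83-fold difference (change 0.87, SE 0.10, limma adjusted p = 0.000597). Upk3b rose to 10.63 ± 0.03 (change 0.57, SE 0.06, adjusted p = 0.000394), Lrrn4 to 9.36 ± 0.04 (change 0.42, SE 0.07, adjusted p = 0.00304) and Upk1b to 9.53 ± 0.04 (change 0.41, SE 0.07, adjusted p = 0.00695). The Wt1 change was -0.01, with a 95% interval of -0.17 to 0.15 (adjusted p = 0.954). In this comparison 17.2% of all probe sets were called, 9.40% higher and 7.76% lower.

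All 4 rises were called on all 3 scalings, as were rises of 12.0% of all genes. The scalings moved them little: Msln was at 0.86 after quantile normalization and 0.92 after median centring, and Upk1b at 0.36 and 0.46. Only Msln changed by a fold of at least 1.5 in this comparison, the minimum that the series design states. Upk3b reached 1.48-fold, Lrrn4 1.34-fold and Upk1b 1.33-fold. Both comparisons use the same wt arrays.

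**Figure D2:**
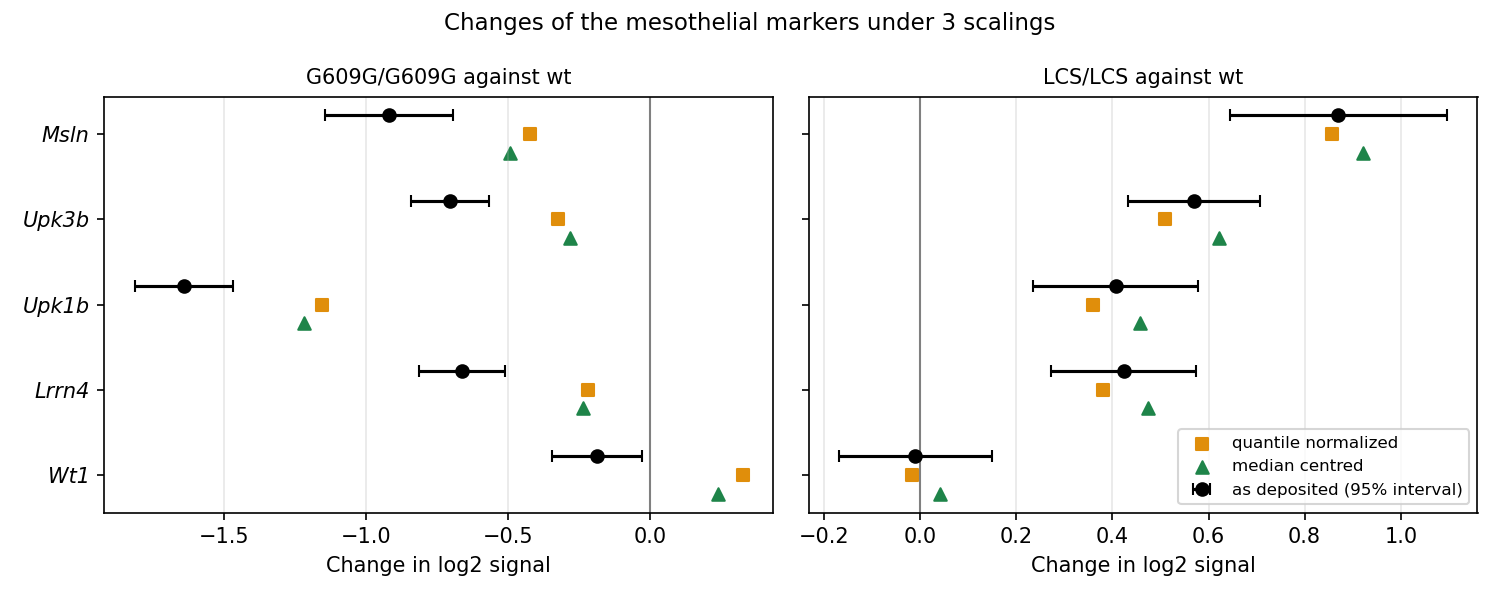
Change in log2 signal of each marker (horizontal axis) in G609G/G609G and in LCS/LCS against wt, as deposited with its 95% interval and after 2 other scalings. Msln, Upk3b, Upk1b and Lrrn4 stay on the same side of 0 on the 3 scalings in both comparisons, whereas Wt1 crosses 0 in G609G/G609G.

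Compared directly, G609G/G609G fat had lower signals of the same 4 markers than LCS/LCS fat. G609G/G609G was lower by 4.14-fold for Upk1b (change -2.05, limma adjusted p = 1.62e-07), 3.46-fold for Msln (-1.79, adjusted p = 1.61e-06), 2.42-fold for Upk3b (-1.28, adjusted p = 6.37e-07) and 2.12-fold for Lrrn4 (-1.09, adjusted p = 2.73e-06). The SE of these changes ran from 0.06 for Upk3b to 0.10 for Msln. All 4 calls held on all 3 scalings, beside 26.2% of genes with such a fall. Wt1 was again unsettled, at -0.18 as deposited (adjusted p = 0.0617) and 0.34 after quantile normalization (adjusted p = 0.000622), where 24.7% of probe sets were called higher, against 38.5% after median centring. As deposited, 52.1% of all probe sets were called between these genotypes, 41.8% lower and 10.3% higher in G609G/G609G, and 55.1% of genes lay lower there without overlap.

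Genes with every G609G/G609G array below every wt array and every LCS/LCS array above made up 18.3% of all genes on the deposited scale, 12.4% with quantile normalization and 14.0% with median centring. Msln, Upk3b, Upk1b and Lrrn4 were in that order on each of these scalings.

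The markers did not move by equal amounts, as the log2 ratio of 2 markers on the same array shows. Median centring leaves such a ratio as it is, whereas quantile normalization can move it, and the ratios below are those of the deposited values. The ratio of Upk1b to Wt1 was 0.99, 1.18 and 1.16 in wt, -0.23, -0.38 and -0.43 in G609G/G609G and 1.49, 1.51 and 1.58 in LCS/LCS. It was lower on every G609G/G609G array and higher on every LCS/LCS array than on any wt array, by -1.46 and 0.42 on average. The ratio of Msln to Wt1 was -0.66, -0.73 and -0.55 in wt, -1.48, -1.34 and -1.32 in G609G/G609G and 0.17, 0.21 and 0.32 in LCS/LCS. That of Upk3b to Wt1 changed by -0.52 in G609G/G609G and 0.58 in LCS/LCS.

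The ratio of Upk3b to Lrrn4 varied least over the 3 genotypes as deposited. It was 1.12, 1.12 and 1.15 in wt, 1.09, 1.11 and 1.06 in G609G/G609G and 1.29, 1.30 and 1.24 in LCS/LCS. Of the 10 pairs of markers, 9 did not overlap between G609G/G609G and wt, 9 between LCS/LCS and wt, and 10 between G609G/G609G and LCS/LCS. These pairs share 5 genes, and how often other gene pairs lack overlap was not counted. The pair that overlapped was Msln and Upk3b in G609G/G609G and Upk1b and Lrrn4 in LCS/LCS. An exact two-sided permutation test of 3 against 3 arrays cannot give a p under 0.1, and the pairs without overlap reached that value before any adjustment over the 10 pairs.

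**Figure D3:**
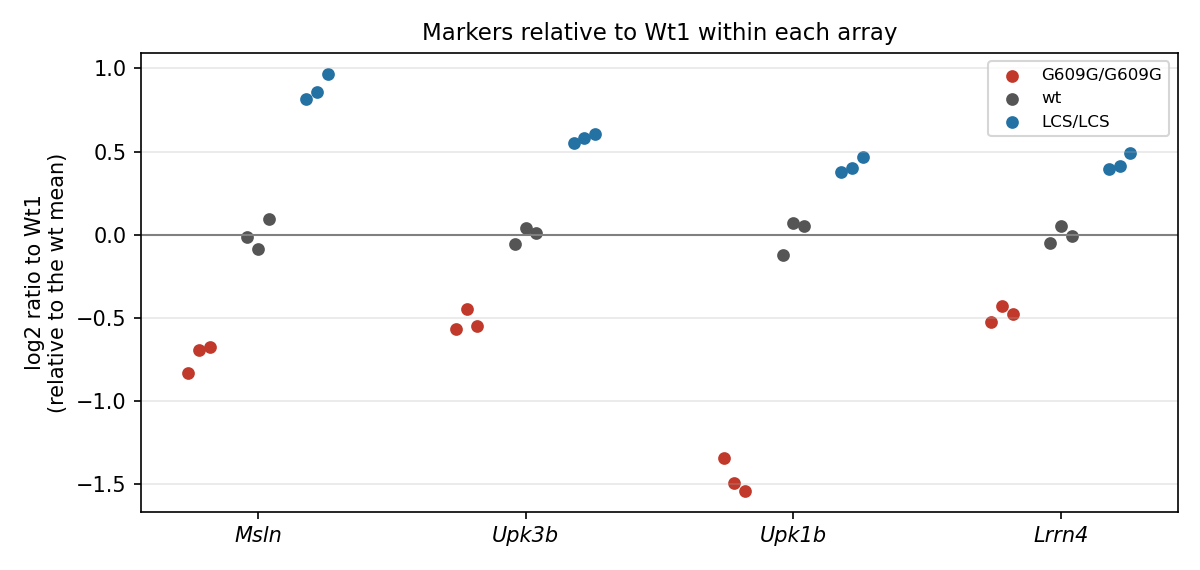
The log2 ratio of 4 markers to Wt1 on each array (vertical axis), set to 0 at the wt mean, with points for arrays. For all 4 the G609G/G609G arrays lie below the wt arrays and the LCS/LCS arrays above, and Upk1b is lowest in G609G/G609G.

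Across the 9 arrays, Msln, Upk3b and Lrrn4 had pairwise Pearson correlations of 0.991 to 0.997, and Upk1b correlated with them at 0.940 to 0.971. Wt1 correlated with the other markers at 0.740 to 0.802 as deposited and at -0.54 to -0.82 after median centring. These values describe arrays that share 3 genotype means. For the deviations of each array from its genotype mean, the correlation was 0.938 for Upk3b and Lrrn4, 0.818 for Msln and Upk3b, and 0.214 for Msln and Upk1b. G609G/G609G replicate 3 was above its genotype mean by 0.19 for Msln and 0.13 for Wt1, on an array whose median deviation over all probe sets was 0.05.

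Among other markers of mesothelium, 8 of 19 were called lower in G609G/G609G and higher in LCS/LCS as deposited, and others moved in other ways. Of these, Krt19, Pdpn, Ezr and Efemp1 kept both calls on all 3 scalings, as did Msln, Upk3b, Upk1b and Lrrn4. Cldn15, Rspo1, Nkain4 and Bnc2 lost the G609G/G609G call after quantile normalization. The share of all genes with both calls was not counted. By the order of arrays, a different rule, 18.3% of all genes as deposited lay below wt in G609G/G609G and above it in LCS/LCS. The list held 28 further genes, of which 19 had a probe set of their own symbol and 9, among them the mesothelin partner Muc16, were not analysed here. In G609G/G609G, 13 of the 19 fell and 2 rose as deposited, and 9 and 2 did so on all 3 scalings, with a median change of -0.61 beside -0.28 over all genes. The list's median was -0.14 with quantile normalization and -0.19 with median centring, and 6 of its genes were called higher on each. On these scalings 4237 and 6517 of all 14860 genes were called higher in G609G/G609G. Over all genes 53.5% fell and 10.5% rose there as deposited, and 25.5% and 10.2% on all 3 scalings. In LCS/LCS, 11 rose and 2 fell, 10 and 2 on all 3 scalings, with a median of 0.36 beside 0.03 over all genes. Over all genes 12.8% rose and 9.77% fell there as deposited, and 12.0% and 8.71% on all 3 scalings. Several of these genes are also expressed outside mesothelium.

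Among surface and cytoskeletal genes, Krt19, a keratin of simple epithelia and mesothelium, measured 8.34, 8.46 and 8.65 in wt, 7.48, 7.48 and 7.61 in G609G/G609G and 9.03, 8.92 and 9.06 in LCS/LCS. It fell by 0.96 (SE 0.09, limma adjusted p = 3.38e-05) and rose by 0.52 (SE 0.09, adjusted p = 0.00456), with no overlap between genotypes. Pdpn, the mucin-type glycoprotein podoplanin, fell by 1.01 and rose by 0.68. Ezr, which encodes ezrin and links actin to the microvilli of the cell surface, fell by 1.27 and rose by 0.32. Cldn15, a claudin of tight junctions, fell by 0.68 and rose by 0.68, and its fall was not called after quantile normalization (-0.14, adjusted p = 0.106). Krt18 and Cdh1, which encodes E-cadherin, fell in both genotypes, by 0.73 and 0.72 in G609G/G609G and by 0.50 and 0.28 in LCS/LCS. Like Krt19, both are also expressed in epithelia, and the source of their signals was not tested.

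Among secreted proteins and signals, Rspo1, an R-spondin that boosts Wnt signalling, rose by 0.40 in LCS/LCS and fell by 0.60 in G609G/G609G, a call lost after quantile normalization (-0.11, adjusted p = 0.178). Aldh1a2, a retinoic acid synthesising enzyme, measured 7.29, 7.29 and 7.50 in wt and 6.23, 6.19 and 6.37 in G609G/G609G. It fell by 1.10 there (SE 0.08, adjusted p = 8.61e-06), and its change of 0.27 in LCS/LCS was not called as deposited (adjusted p = 0.0513). In LCS/LCS it was called higher after quantile normalization (0.27) and median centring (0.32). Igfbp5, an insulin-like growth factor binding protein, fell by 1.52 in G609G/G609G and was at -0.03 in LCS/LCS (adjusted p = 0.814). Efemp1, the matrix protein fibulin-3, fell by 0.61 and rose by 0.39.

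Prg4 and Slpi rose in both genotypes. Prg4 encodes lubricin, a lubricating proteoglycan, and measured 7.75, 7.72 and 7.88 in wt, 9.01, 9.04 and 9.16 in G609G/G609G and 8.59, 8.43 and 8.43 in LCS/LCS. The rise was 1.29 in G609G/G609G (SE 0.07, limma adjusted p = 2.53e-06) and 0.70 in LCS/LCS (SE 0.07, adjusted p = 0.000416), opposite in G609G/G609G to Msln, Upk3b, Upk1b and Lrrn4. Slpi, a secreted protease inhibitor, rose by 0.30 and 0.66. Both rises were called on all 3 scalings.

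Calls of the transcription factors of the list in G609G/G609G depended on the scaling, and for Bnc1 and Gata4, as for Wt1, so did the direction. Gata6 measured 8.87, 8.91 and 8.93 in wt, 8.92, 8.97 and 9.02 in G609G/G609G and 8.91, 8.87 and 8.91 in LCS/LCS. Its wt arrays overlapped with those of both other genotypes, while every G609G/G609G array lay just above every LCS/LCS array. Its change in G609G/G609G was 0.07 as deposited (adjusted p = 0.294) and 0.49 after either other scaling. Bnc1, the zinc finger protein basonuclin 1, was at -0.14 in G609G/G609G and 0.36 in LCS/LCS, neither called as deposited. It was called higher in G609G/G609G on both other scalings, and in LCS/LCS after median centring only. Gata4 was dim, at 5.40 (wt), 5.37 (G609G/G609G) and 5.37 (LCS/LCS), and was likewise called higher in G609G/G609G on both other scalings. Bnc2 was at -0.48 and 0.21, called as deposited, but was not called after quantile normalization in either comparison.

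The 3 remaining genes of surface membranes did not share a pattern in G609G/G609G. Gpm6a, a membrane glycoprotein, was at -0.09 as deposited (adjusted p = 0.396) and was called higher on both other scalings, at 0.32 and 0.33. Nkain4, an interaction partner of the sodium pump, was at -0.39 as deposited and 0.03 after median centring, where it was not called. Pkhd1l1 fell by 1.18 on the deposited scale and by less, 0.66 and 0.75, on the other scalings. In LCS/LCS, Gpm6a rose by 0.44 and Nkain4 by 0.64, while the change of 0.31 of Pkhd1l1 was not called as deposited (adjusted p = 0.0837). Pkhd1l1 was called higher there after quantile normalization (0.30) and median centring (0.365).

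**Figure D4:**
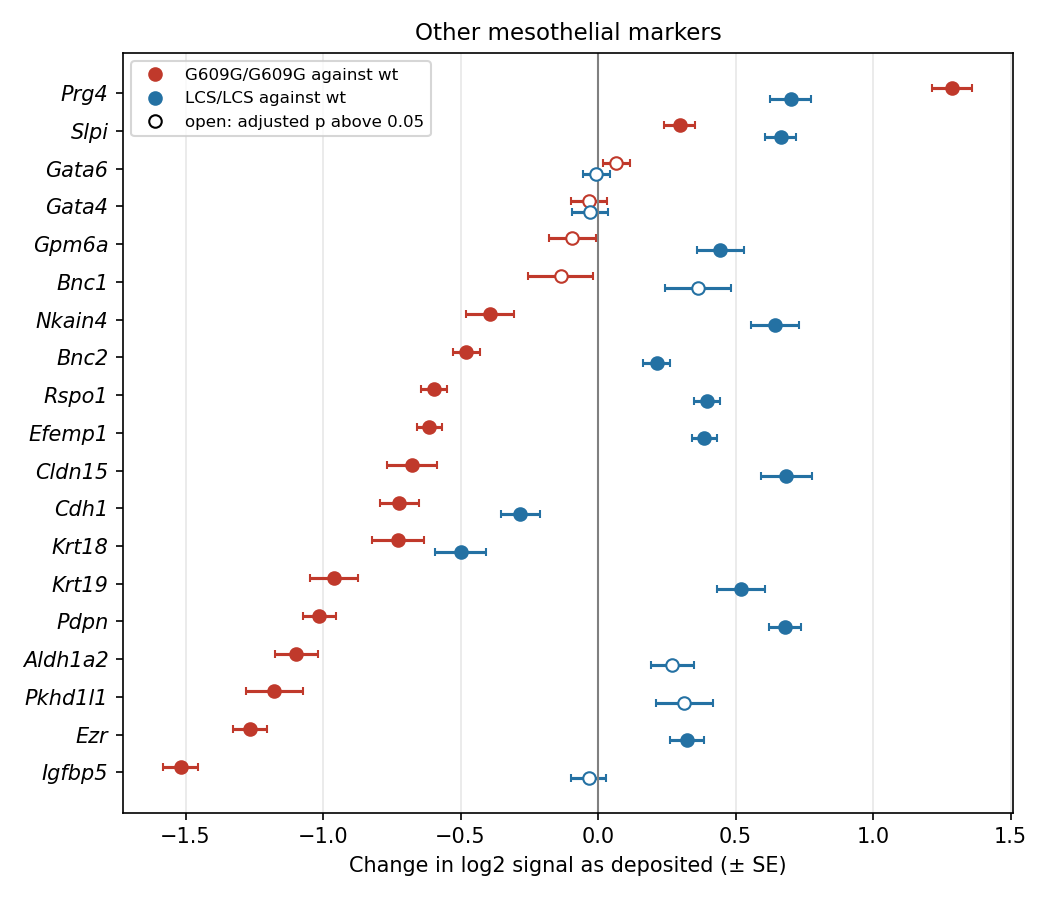
Change in log2 signal (horizontal axis, ± SE) of the 19 other mesothelial markers in G609G/G609G and LCS/LCS against wt, as deposited, with open points where the adjusted p was above 0.05. Krt19, Pdpn, Ezr, Cldn15, Nkain4, Rspo1, Efemp1 and Bnc2 were called lower in G609G/G609G and higher in LCS/LCS, whereas Prg4 and Slpi rose in both. In G609G/G609G, Cldn15, Nkain4, Rspo1 and Bnc2 lost their call after quantile normalization, and Nkain4 turned to 0.03 after median centring.

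Of 12 relatives of the markers, 11 were measured, and 8 fell in G609G/G609G as deposited and 4 on all 3 scalings, beside 53.5% and 25.5% of all genes. Upk1a, the other tetraspanin among the uroplakins and a gene of the bladder lining, fell by 1.23 in G609G/G609G (SE 0.10, adjusted p = 1.75e-05) and by 2.09 in LCS/LCS (SE 0.10, adjusted p = 4.79e-06), where Upk1b rose. Upk2 fell by 0.62 and 0.53 as deposited, and both calls were lost after quantile normalization. Upk3a was dim, at 5.11 (wt), 4.60 (G609G/G609G) and 4.89 (LCS/LCS). Mslnl, the mesothelin-like gene, was at 4.37, 4.36 and 4.38, not called in either comparison as deposited but called higher in G609G/G609G after median centring (0.41). Egr1 and Egr2 encode zinc finger factors whose DNA-binding domains resemble that of WT1. Egr2 fell by 3.24 in G609G/G609G (SE 0.07, adjusted p = 1.57e-08) and rose by 0.56 in LCS/LCS, and Egr1 rose by 0.61 in LCS/LCS. Of 15 measured genes linked to Wt1, 11 fell in G609G/G609G as deposited and 3 on all 3 scalings. The latter count is near the 25.5% of all genes. In LCS/LCS 2 rose and 2 fell, near the 12.8% and 9.77% of all genes as deposited. Zeb2 fell by 1.73 and rose by 0.24, while Podxl was at -0.13 and 0.11, neither called as deposited. In G609G/G609G, Podxl was called higher after quantile normalization (0.26) and median centring (0.30).

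Markers of other cells and neighbouring tissues moved on the same arrays, and their part in the results above was not tested. The shares of all genes to set beside these counts are 53.5% lower and 10.5% higher in G609G/G609G as deposited, 25.5% and 10.2% on all 3 scalings, and 12.8% higher in LCS/LCS as deposited. Adipose progenitor and fibroblast markers had 13 falls among 14 in G609G/G609G, 11 on all 3 scalings (median -1.16) and 8 rises in LCS/LCS (median 0.24). Macrophage markers had 10 falls among 11, 8 on all 3 scalings (median -1.15) and 8 rises (median 0.36). Those of white adipocytes had 9 falls and 1 rise among 12 in G609G/G609G (median -0.55, 6 falls on all 3 scalings), and 3 rises in LCS/LCS (median 0.06). Endothelial markers, by contrast, had 4 rises and 3 falls among 12 in G609G/G609G, with a median of -0.04, and 7 rises in LCS/LCS (median 0.28). In G609G/G609G they had 9 rises and no fall after quantile normalization (median 0.36), and 10 rises and no fall after median centring (median 0.38). On those scalings 4237 and 6517 of all 14860 genes were called higher, and 4 endothelial rises held on all 3 scalings. All 10 measured skeletal muscle markers rose in G609G/G609G, by a median of 6.37.

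Set against these lists on the same array, the markers changed by different amounts. The mean log2 signal of the 5 markers was 8.70 ± 0.05 (wt), 7.88 ± 0.10 (G609G/G609G) and 9.15 ± 0.03 (LCS/LCS). Minus the mean of the progenitor and fibroblast list, it was higher than in wt by 0.34 in G609G/G609G and by 0.18 in LCS/LCS, with no overlap. Minus the mean of the white adipocyte list, it was higher by 0.10 in G609G/G609G, with overlap, and by 0.29 in LCS/LCS, without overlap. Minus the endothelial list, it changed by -0.81 in G609G/G609G and by 0.16 in LCS/LCS. Minus the macrophage list, it was higher by 0.20 and 0.05, and minus the skeletal muscle list it changed by -6.93 and 0.19. Minus the 19 other mesothelial markers, it changed by -0.31 in G609G/G609G and 0.15 in LCS/LCS, without overlap in either. These differences were not tested. The mean of the 5 markers includes Wt1, at -0.19 in G609G/G609G and -0.01 in LCS/LCS, which did not move with the others. Differences without Wt1 were not computed, so the small ones may depend on it.

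Tissue of the male reproductive tract is also covered by mesothelium, and its transcripts differed between the arrays. The summed linear signal of 13 epididymal markers was 57446 to 58723 in wt, 10258 to 10530 in G609G/G609G and 57638 to 58195 in LCS/LCS. Of these markers 12 fell in G609G/G609G, while 7 rose and 3 fell in LCS/LCS, so the LCS/LCS sum joins opposite changes. Lcn8, an epididymal lipocalin, went from 12.82 in wt to 4.08 in G609G/G609G and 13.17 in LCS/LCS, whereas Lcn5, another lipocalin, went from 13.50 to 11.63 and 11.98. The summed signal of 14 testis and germ cell markers was 9877 to 10812 in wt, 4764 to 4889 in G609G/G609G and 1031 to 1135 in LCS/LCS. Prm2, a sperm protamine, went from 11.16 to 9.40 and 6.87. Of 11 Sertoli cell markers, which bear on Wt1, 6 fell and 1 rose in G609G/G609G on all 3 scalings (median -0.97 as deposited), and 2 fell and 1 rose in LCS/LCS (median 0.0033). Clu fell by 2.19 and 0.92, Ctsl rose by 0.43 and 0.57, and Sox9 fell by 1.14 in G609G/G609G and was at 0.12 in LCS/LCS (limma adjusted p = 0.388). Amh and Fshr, also on this list, were dim in wt, at 4.09 and 3.70. General epithelial markers had 12 falls among 13 in G609G/G609G as deposited, and 6 falls and 1 rise in LCS/LCS. Over all genes as deposited, 53.5% fell and 10.5% rose in G609G/G609G, and 9.77% fell and 12.8% rose in LCS/LCS. On all 3 scalings these shares were 25.5%, 10.2%, 8.71% and 12.0%. Epcam, an adhesion protein of epithelia, fell by 1.04 and 0.46.

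Cells of the peritoneal fluid and of lymphoid clusters adhere to the mesothelial surface. Of 11 measured markers of peritoneal macrophages and B cells, 8 fell and 2 rose in G609G/G609G as deposited, 3 and 2 on all 3 scalings, and 5 rose in LCS/LCS. The 3 falls are near the 25.5% of all genes with such a fall. As deposited, 53.5% of all genes fell and 10.5% rose in G609G/G609G, and 12.8% rose in LCS/LCS. Cxcl13, a chemokine that attracts B cells, rose by 1.20 in G609G/G609G (SE 0.06, adjusted p = 1.01e-06) and by 0.46 in LCS/LCS (SE 0.06, adjusted p = 0.00109), beside Prg4, which is on both lists. The B cell gene Ms4a1 was dim in every genotype, at 4.01 (wt), 3.93 (G609G/G609G) and 4.16 (LCS/LCS). Timd4 of peritoneal macrophages was at -0.25 in G609G/G609G as deposited and 0.17 after median centring, and rose by 0.45 in LCS/LCS.

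**Figure D5:**
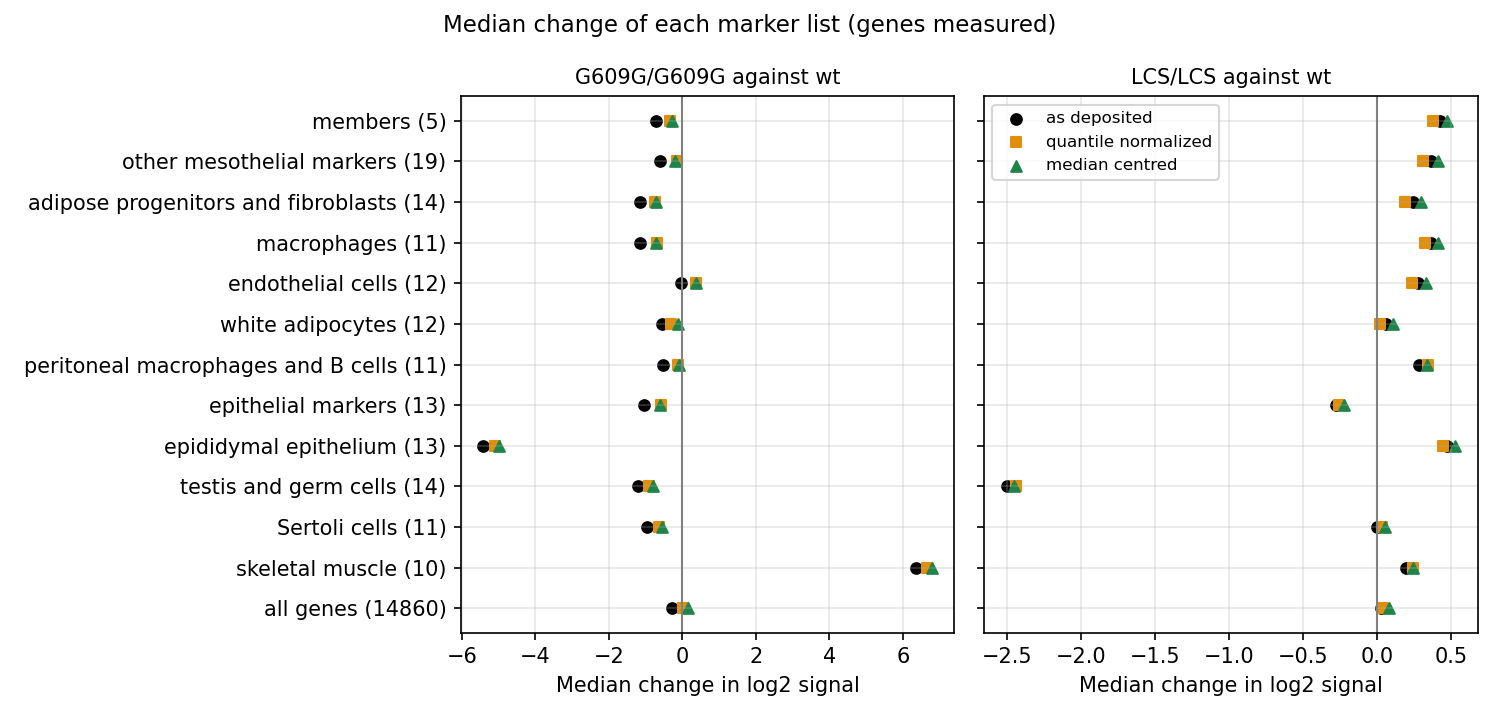
Median change in log2 signal (horizontal axis) of the marker lists shown in G609G/G609G and in LCS/LCS against wt on 3 scalings, with the number of measured genes in brackets; members are the 5 mesothelial markers. The skeletal muscle list stands apart above and the epididymal list below in G609G/G609G, and the testis and germ cell list below in LCS/LCS.

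The genes whose pattern over the 9 arrays was most like the mean of the 5 markers, among 2963 genes whose genotype means spanned at least 1, were Slfn5, Capn2, Prrx1, Clybl, Plod1, Ccm2, Ppic, Fzd4, H2-Ab1 and Plekha2. Their Pearson correlations were 0.9989 to 0.9994. Capn2, a calpain protease, was at 10.44 (wt), 9.51 (G609G/G609G) and 10.94 (LCS/LCS). Prrx1, a homeobox factor of mesenchyme, was at 9.42, 8.43 and 9.94. In all, 337 genes (11.4%) correlated with the mean at 0.99 or more.

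Taken singly, Msln was most like Vcan, which encodes the matrix proteoglycan versican, Cox15 and Slco3a1. Upk3b was most like Ptprk, Inpp5d and Lbp, Upk1b like Ctsd, Unc119 and Pdlim1, and Lrrn4 like Fez2, Elovl1 and Pdcd4. The lowest of these correlations was 0.997, for Slco3a1. Wt1 had no gene at 0.99 or more among those searched, whose genotype means spanned at least 1. The means of Wt1 itself spanned only 0.19, so genes as flat as Wt1 were left out. The nearest to Wt1 in that search were Them6, Dcun1d4 and Mydgf at 0.943 to 0.956, and these became -0.26 to -0.51 after median centring.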

How the data were processed

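The authors deposited log2 signals, 1 per probe set, of an Affymetrix exon array summarised per gene; the scale was inferred from the range of the values. Per the labels' protocols, RNA came from snap-frozen, powdered tissue and was labelled with biotin. Background correction, probe summary and scaling are not given in the sources used here, and neither are detection calls, so low signals cannot be told from background. The submitters' processing notes name mm9. Genotypes and replicate numbers came from sample titles. Of 23332 probe sets, 14996 had 1 symbol, 1019 had several and 7317 were not listed. Differences were tested with limma 3.58.1 (R 4.3.3), fitting all 9 arrays with a mean per genotype and empirical Bayes moderation (6 residual degrees of freedom), tested on simulated data. Alternatives were the other scalings (quantile normalization, median centring), trended and robust moderation, array weights, fits of 2 genotypes, a replicate block, a filter on the dimmest 25% of probe sets, the methods' t-test, a fold minimum and leaving out each array.

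The markers and lists were chosen with earlier results of these data known. The naming rule took the 5 markers, all measured genes of the mesothelial and relatives lists, the 3 brightest genes in wt of each other list, and the nearest genes by correlation over arrays, without predicted genes and olfactory or vomeronasal receptors. Amh, Fshr, Ms4a1 and Timd4 were named after their values were seen. Tables and figures used Python 3.11.15, pandas 2.3.3 and matplotlib 3.10.9.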

Additional observations from a re-analysis of the deposited data

How the results depend on the processing

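Of 300 values of the 5 markers under alternatives, 276 kept their direction and their side of the threshold. Same-numbered arrays of different genotypes correlated in their deviations from the genotype means at -0.07 to 0.23, and not every array correlated best with its own number, so the numbers were not taken as pairs. With the replicate block, 4 markers stayed called in each comparison and Wt1 was at -0.19 (limma adjusted p = 0.0525) in G609G/G609G, so the block changed no call of a marker. Wt1 in G609G/G609G was called lower with array weights (-0.24), an intensity trend (-0.19) and the filter on dim probe sets (-0.19). Without single arrays it ran from -0.25 to -0.14, called only when G609G/G609G replicate 3 was left out (limma adjusted p = 0.00639). It turned to 0.32 after quantile normalization and 0.24 after median centring. Against LCS/LCS, Wt1 was at -0.23 with array weights, 0.34 and 0.20 on those scalings, and -0.24 to -0.13 without single arrays, again called without G609G/G609G replicate 3 (adjusted p = 0.00766). In LCS/LCS against wt it was never called, at 0.042 after median centring and -0.037 to 0.0033 without single arrays. The fold minimum of 1.5, alone or with the methods' t-test before and after Benjamini-Hochberg adjustment, ended the calls of Upk3b (0.57), Lrrn4 (0.42) and Upk1b (0.41) in LCS/LCS by its own construction. It left 1 marker and 5 of the other mesothelial markers called there. Without single arrays, the 4 other markers kept every call.

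Over all probe sets, the methods' t-test with the fold minimum called 6650 in G609G/G609G against wt, 1487 in LCS/LCS against wt and 6933 between the mutants, and 6177, 1233 and 6511 after adjustment. Adding the fold minimum to limma gave 6934, 1385 and 7184. In LCS/LCS against wt the count of probe sets called was 4005 as reported, 6511 with array weights, and 2669 (without LCS/LCS replicate 3) to 4805 without single arrays. The cause was not tested. Averaging probe sets gave no other value, since each mesothelial gene had 1. Signal over background is unknown here, which limits dim genes such as Mslnl and Gata4.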
